A study of Mus musculus with 18 samples.

Results

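The extracellular matrix genes were 46 listed genes for collagens, laminins, elastic fibre proteins, matrix glycoproteins and proteoglycans, and for the enzymes that fold and crosslink them. A listed gene was kept when the summed FPKM of its assembled transcripts (fragments per kilobase of transcript, per-million mapped fragments) reached 1 in at least 2 of the 18 RNA-seq libraries. The rule kept 45 of the 46 genes, out of 12236 genes past the same threshold. Eln, which encodes elastin, was listed at 0 in all 18 libraries. Of the 45 members, 41 were at 1 FPKM or more in every library, and the other 4 (Col5a3, Col11a1, Nid2 and Lum) fell below 1 FPKM in at least 1 library. A gene that passes such a threshold through the group in which it is high has to differ between groups, so the counts over members given below are descriptions.

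The cells were immortalized mouse embryonic fibroblasts without their own RelA (rela-/-), in which a pBABE-puro retrovirus had put back RelA in 1 of 3 forms. RelA(wt) cells carried mouse RelA, RelA(TA2) cells carried RelA mutated so that it no longer held the TAZ1 domain of the coactivator CBP, and RelA(Ser276Ala) cells carried RelA with alanine at the Ser276 phosphorylation site. Each line was taken before TNFα (0 h) and after 1 h and 2 h with TNFα at 5 ng/ml, with 2 libraries for each of the 9 conditions. The methods call the 2 libraries of a condition independent replicates without saying whether they came from separate cultures, so the p-values measure the spread between these libraries. No source gives more than 1 reconstituted line for each form of RelA, so the form and the line cannot be told apart. The vector's promoter drove RelA in all 3 lines, wt among them, and no line with an empty vector is among the libraries. The lines are called wt, TA2 and Ser276Ala cells below.

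The matrix is the meshwork of proteins outside cells, and fibroblasts make much of it. Fibrillar collagens are folded in the endoplasmic reticulum, trimmed outside the cell and crosslinked by lysyl oxidases, while type IV collagen, laminins and nidogens form basement membranes, and fibulins and fibrillin form elastic fibres around elastin. NF-κB, of which RelA is the main activating subunit, is switched on by TNFα in fibroblasts.

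The libraries held 25.3 to 31.3 M mapped fragments (median 28.3 M). Nfkbia, the IκBα gene and a direct NF-κB target, was at 34.1 and 14.2 FPKM at 0 h and at 271.5 and 395 FPKM at 1 h in wt cells. It rose at 1 h in every line, by 3.86, 3.57 and 3.69 on the log2 scale of FPKM in wt, TA2 and Ser276Ala cells, and by 5.21, 3.70 and 3.74 on that of recovered fragments, a second measure described below. By limma on fragments this rise was smaller than in wt cells in TA2 cells (-1.51, adjusted p = 0.00329) and in Ser276Ala cells (-1.47, adjusted p = 0.00383), while by FPKM the differences of -0.29 and -0.17 did not pass (adjusted p = 0.898 and 1). Rela itself lay between 156 and 187 FPKM in wt cells, between 315 and 366 FPKM in TA2 cells and between 174 and 211.5 FPKM in Ser276Ala cells. Its level in TA2 cells was above wt by 0.95 on the log2 scale (SE 0.058, limma adjusted p = 3.53e-06), and the part of this in any difference below was not tested. These are RNA levels. The paper reports less RelA protein in Ser276Ala than in wt cells, and the part of that was not tested either. Of 6 fibroblast markers, Vim, Pdgfra, Pdgfrb, Thy1 and S100a4 were present in all 18 libraries and the median of Fap was 0. Their summed level was 6284 to 6836 recovered fragments per M fragments in genes in wt cells, 5013 to 5783 in TA2 cells and 5055 to 5775 in Ser276Ala cells. Of 5 leukocyte and macrophage markers, Ptprc, Emr1 and Itgam were listed at 0 in every library, and Csf1r and Cd14 were present in all, with a summed level of 15.4 to 18.8 fragments per M in wt, 11.2 to 17.75 in TA2 and 15.05 to 19.1 in Ser276Ala cells. Of 4 endothelial markers, Pecam1 and Tek were listed at 0 throughout and Cdh5 was present in all libraries. Their sum was 1.23 to 2.71 fragments per M in wt, 2.15 to 6.26 in TA2 and 6.48 to 9.57 in Ser276Ala cells, and its part in the line differences below was not tested. Of 5 bone and cartilage markers only Sox9 was found, in all libraries. It held 34.0 to 72.7 fragments per M in wt, 20.85 to 56.3 in TA2 and 44.6 to 78.4 in Ser276Ala cells. Of 4 muscle markers only Des was found (1.86 to 6.62 fragments per M), and of 3 fat markers only Fabp4 (0 to 4.32). Of 4 epithelial markers only Cldn4 was found, at up to 0.45. The part of these was not tested either.

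Each gene was measured in 2 ways. The FPKM of all assembled transcripts of a gene were added up. The number of fragments behind them was recovered as an estimate and put on the per-million scale of fragments in genes, written as fragments per M. Summed FPKM is moved by short assembled pieces, because a few fragments on a piece shorter than a typical fragment give a very large FPKM. The clearest case was Bmp1, which encodes the protease that trims procollagen. In wt cells at 1 h it reached 1634 and 2386 FPKM, against 88.1 and 96.8 FPKM at 0 h. The recovered fragments were 289 and 291 per M at 1 h, and 279.5 and 309 per M at 0 h. The largest pieces were 92 bases at 1252 FPKM in replicate 1 and 89 bases at 2295 FPKM in replicate 2, holding 21.7 and 27.9 fragments. By FPKM the 2 libraries at 1 h stood far above those at 0 h, and by fragments all 4 lay in the same range. In the same way, Col18a1, the type XVIII collagen of basement membranes, stood at 2117 FPKM in Ser276Ala cells at 2 h in replicate 2. The other 17 libraries held 16.4 to 78.7 FPKM, and a piece of 88 bases carried 2051 FPKM. A limma fit on the log2 scale was therefore made on both measures, with FPKM as the main one. A member was said to have risen or fallen where the adjusted p was under 0.05.

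**Figure D1:**
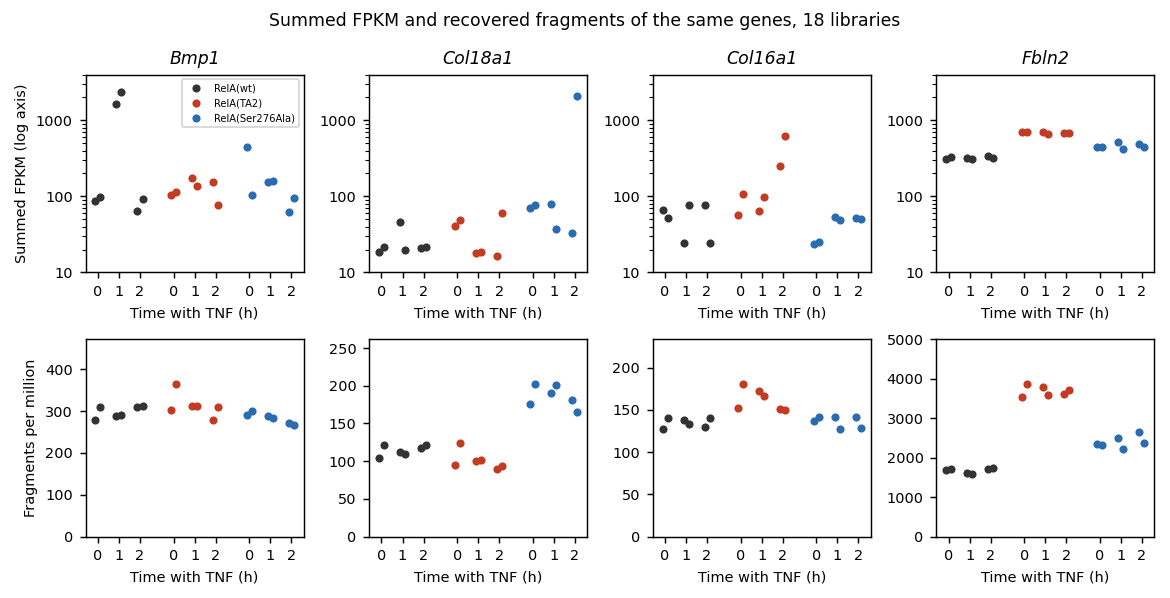
Summed FPKM (top, log axis) and recovered fragments per M (bottom, linear axis from 0) of Bmp1, Col18a1, Col16a1 and Fbln2 in each of the 18 libraries, by line (colour) and hours with TNFα. Bmp1 reached 1634 and 2386 FPKM in the 2 wt libraries at 1 h while its fragments there were 289 and 291 per M, and Fbln2 kept the same order of lines on both measures.

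Per length, the members spanned more than 3 orders on a log10 scale, read as mean recovered fragments per kilobase of exons per M fragments in genes. Col1a2, a chain of type I collagen, was highest with 722. It was followed by Fbln2 (fibulin 2) with 577, Dcn (decorin, a small proteoglycan that coats collagen fibrils) with 503, Fn1 (fibronectin) with 434 and Sparc (a collagen-binding glycoprotein) with 379. In all, 12 members were above 100 on this scale and 10 were below 10. The lowest were Loxl1 (a lysyl oxidase) with 0.56, Col5a3 (a minor type V collagen chain) with 0.64, Col11a1 (a type XI collagen chain) with 0.69, Lum (lumican, a relative of decorin) with 0.77 and Lama4 (a laminin chain) with 0.81. The 2 chains of type I collagen are made in a fixed ratio as protein, and Col1a1 stood at 294 against 722 for Col1a2. Of the basement membrane members, Nid1 (nidogen 1) was highest with 192, Lamb1 stood at 109, and Nid2 was listed at 0 in 9 libraries.

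**Figure D2:**
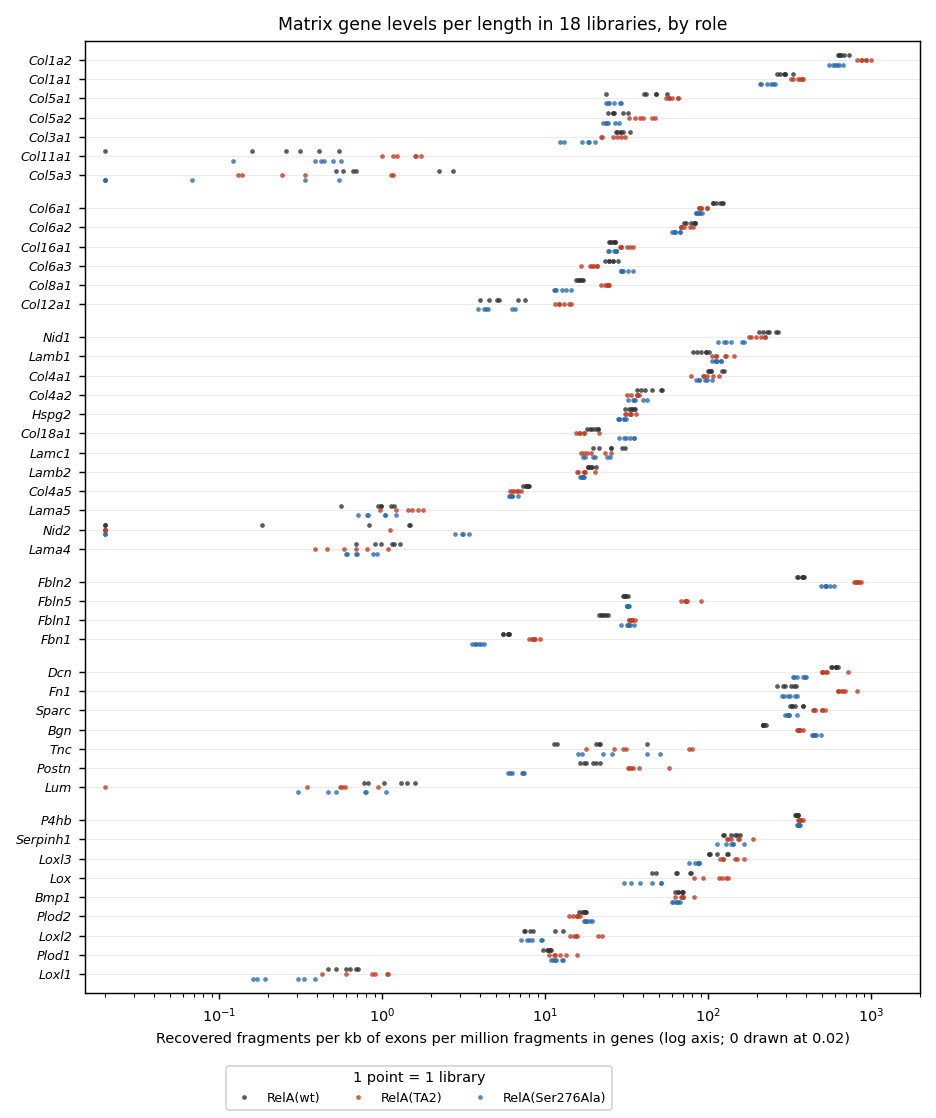
Recovered fragments per kilobase of exons per M fragments in genes (x, log axis, 0 drawn at the left) of the 45 members (rows, grouped by role and ordered by mean), with 1 point for each of the 18 libraries coloured by line. Col1a2 lies at the right with a mean of 722 and Loxl1 at the left with a mean of 0.56, and the 3 lines separate for Postn, Bgn and Fbln2.

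Together the members took 1.89% to 2.14% of the fragments in genes in wt cells (median 2.05%). They took 2.75% to 3.05% in TA2 cells (median 2.81%) and 1.86% to 2.03% in Ser276Ala cells (median 1.94%). The 6 TA2 libraries were all above the 12 others, and the ranges of wt and Ser276Ala overlapped. In bulk RNA, fewer cells that express a gene and less RNA per cell cannot be told apart.

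The first question was how the matrix genes differed between cells with RelA unable to hold the TAZ1 domain of CBP, cells with RelA lacking Ser276, and wt cells, averaged over the 3 times. Against wt, 17 members were higher and 3 lower in TA2 cells, or 44.4% of the 45. Of the 12236 genes tested, 11.7% passed, 5.71% higher and 6.02% lower. In Ser276Ala cells 5 members were higher and 11 lower, or 35.6%, where 12.6% of all genes passed, 7.21% higher and 5.38% lower. Recovered fragments gave 24 higher and 13 lower in TA2 cells, or 82.2%, where 40.4% of all genes passed, and 6 higher and 25 lower in Ser276Ala cells, or 68.9%, where 43.7% passed. Past the test on both measures, 17 members were higher in TA2 cells (5.36% of all genes) and 3 lower (5.66%). In Ser276Ala cells 4 were higher on both measures (6.77% of all genes) and 11 lower (5.08%). The median log2 FPKM difference was 0.09 over the members and 0.005 over all genes tested for TA2, and -0.15 against 0.021 for Ser276Ala. By fragments it was 0.26 against 0.005 for TA2, and -0.15 against 0.01 for Ser276Ala. These comparisons share the wt libraries. Compared with each other, TA2 cells had 17 members higher and 2 lower than Ser276Ala cells, or 42.2%, where 12.8% of all genes passed, 5.81% higher and 7% lower. All of these passed on both measures, where 5.55% of all genes did so higher and 6.55% lower. On recovered fragments the counts were 27 higher and 4 lower, where 43.1% of all genes passed.

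**Figure D3:**
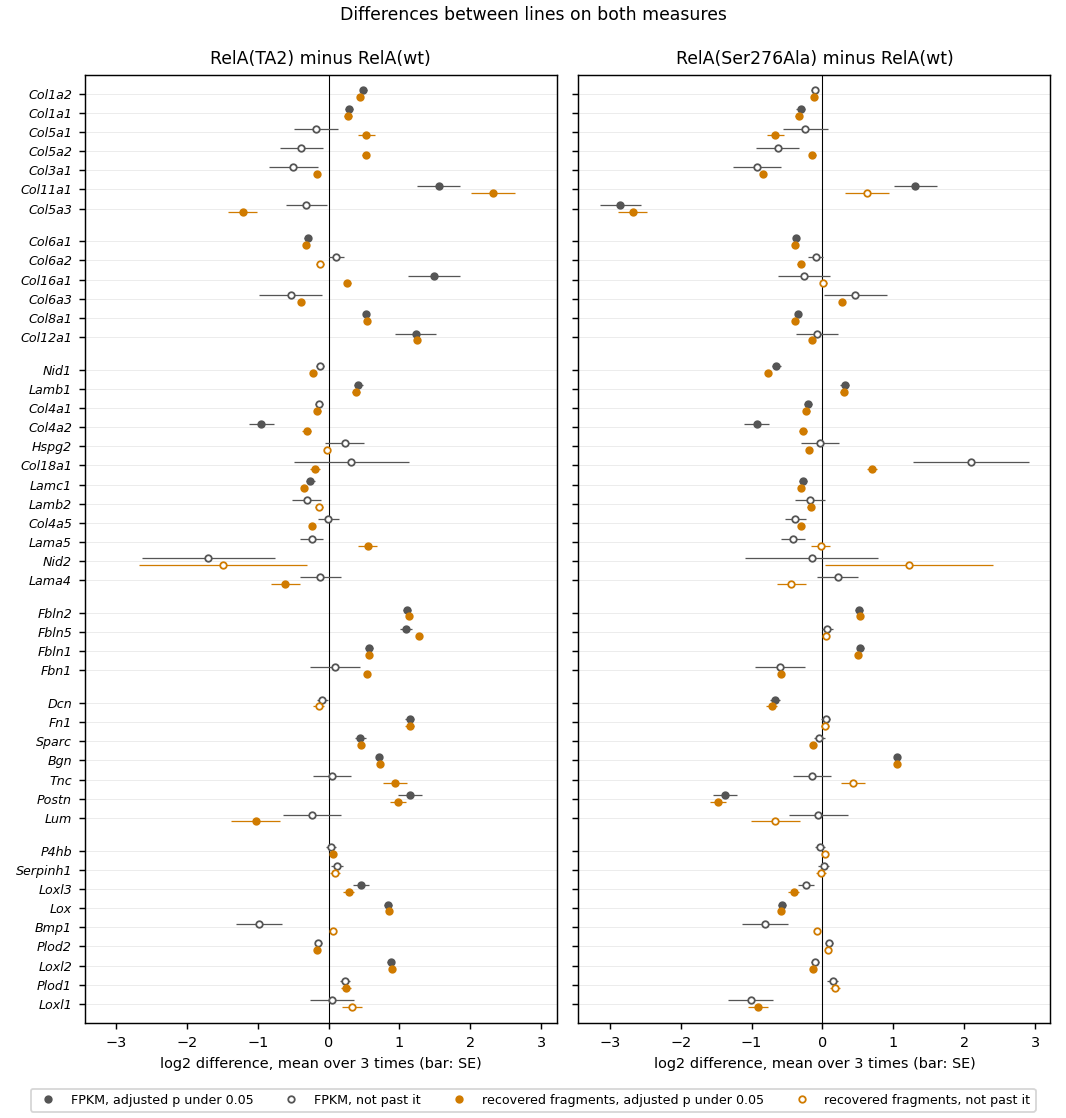
Log2 difference from wt, mean over 3 times, of the 45 members (rows, grouped by role) in TA2 cells (left) and Ser276Ala cells (right), by summed FPKM (grey) and recovered fragments (orange). Bars are standard errors and filled points passed the test, 20 members by FPKM on the left and 16 on the right; Fbln2 and Bgn lie to the right of 0 in both panels, and Postn and Lox lie on opposite sides.

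The sequences before the starts of 6 members, chosen after their values were seen, are printed as examples. Postn, Fbln2 and Bgn are shown because the ranges of the 3 lines lay apart, Tnc and Col5a3 because they rose at 2 h on both measures, and Serpinh1 because its window alone held a match to the κB motif. They are the 250 bases before the RefSeq start, build GRCm38.p6, whose coordinates are those of mm10. Capitals mark matches on either strand to the κB motif, to TATAAA (the TATA box), to CCAAT (the CCAAT box), to GGGCGG (the GC box) or to TGANTCA (the AP-1 site).
Postn, chr3:54360857-54361106, + strand: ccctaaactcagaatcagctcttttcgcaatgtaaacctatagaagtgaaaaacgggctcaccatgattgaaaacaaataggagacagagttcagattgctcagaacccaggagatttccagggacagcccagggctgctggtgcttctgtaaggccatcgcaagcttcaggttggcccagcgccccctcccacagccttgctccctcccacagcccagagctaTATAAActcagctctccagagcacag
Fbln2, chr6:91212514-91212763, + strand: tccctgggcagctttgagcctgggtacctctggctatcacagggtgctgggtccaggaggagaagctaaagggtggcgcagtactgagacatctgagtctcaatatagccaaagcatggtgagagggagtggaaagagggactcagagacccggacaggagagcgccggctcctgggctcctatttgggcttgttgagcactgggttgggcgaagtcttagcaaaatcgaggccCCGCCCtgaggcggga
Bgn, chrX:73483351-73483600, + strand: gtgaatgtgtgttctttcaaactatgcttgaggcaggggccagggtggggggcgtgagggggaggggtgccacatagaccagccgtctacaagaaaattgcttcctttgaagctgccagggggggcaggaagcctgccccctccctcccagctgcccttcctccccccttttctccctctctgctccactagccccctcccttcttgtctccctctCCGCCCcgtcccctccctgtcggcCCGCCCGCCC
Tnc, chr4:64047016-64047265, - strand: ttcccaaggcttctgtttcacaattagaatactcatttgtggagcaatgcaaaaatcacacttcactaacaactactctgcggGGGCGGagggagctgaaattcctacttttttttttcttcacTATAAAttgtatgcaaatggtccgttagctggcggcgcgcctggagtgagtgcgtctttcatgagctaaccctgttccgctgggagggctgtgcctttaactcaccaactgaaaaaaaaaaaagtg
Col5a3, chr9:20815068-20815317, - strand: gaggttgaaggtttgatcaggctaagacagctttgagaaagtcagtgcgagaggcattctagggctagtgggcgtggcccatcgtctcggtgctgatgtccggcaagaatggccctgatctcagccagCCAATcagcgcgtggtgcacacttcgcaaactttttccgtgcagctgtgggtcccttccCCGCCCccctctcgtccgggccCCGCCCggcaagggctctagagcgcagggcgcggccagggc
Serpinh1, chr7:99353240-99353489, - strand: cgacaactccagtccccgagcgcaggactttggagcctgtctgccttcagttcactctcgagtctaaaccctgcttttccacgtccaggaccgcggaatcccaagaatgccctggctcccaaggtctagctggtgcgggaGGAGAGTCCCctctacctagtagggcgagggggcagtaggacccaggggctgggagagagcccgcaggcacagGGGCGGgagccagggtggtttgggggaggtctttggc

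Windows were at hand for 30 of the 46 listed genes, 36 windows in all. A κB match was found in 1 of the 36 (2.78%), in Serpinh1, 110 to 101 bases before the start, where 3.9% of all 32851 windows of the same length held one. TATAAA stood in 5 of the 36 (13.9%, against 12.4% of all windows), among them Postn, 26 bases before the start. CCAAT stood in 12 (33.3%, against 33.8%) and TGANTCA in 1 (2.78%, against 6.75%), in Col6a1. GGGCGG stood in 25 (69.4%, against 32.7%), and the median GC content of the members' windows was 61.8% against 52.4% of all windows. A match describes letters and not a bound site.

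Among the fibrillar collagens and their regulators (7 members), 3 were higher in TA2 cells than in wt cells and none was lower, while 1 was higher and 2 were lower in Ser276Ala cells. By fragments the counts were 5 higher and 2 lower in TA2 cells, and none higher and 6 lower in Ser276Ala cells. Of all genes, 11.7% passed in TA2 and 12.6% in Ser276Ala cells by FPKM, and 40.4% and 43.7% by fragments. The same shares stand behind the counts of each role group below. Col1a1, the α1 chain of type I collagen, lay between 193 and 238 FPKM in wt cells (median 207), between 234.5 and 275 in TA2 cells (median 260) and between 150 and 184 in Ser276Ala cells (median 172.5). The lines were ordered TA2, wt, Ser276Ala, with an overlap between TA2 and wt only. The log2 difference from wt was 0.29 (SE 0.058, limma adjusted p = 0.00989) in TA2 cells and -0.31 (SE 0.058, adjusted p = 0.00634) in Ser276Ala cells. Col1a2, its partner chain, lay between 564 and 626 FPKM in wt, between 736 and 890.1 in TA2 and between 491 and 576 in Ser276Ala cells. It was above wt in all 6 TA2 libraries (0.49, SE 0.050, adjusted p = 1.29e-04), and in Ser276Ala cells it did not pass by FPKM (-0.11, adjusted p = 0.211) and was lower by fragments (-0.12, adjusted p = 0.0206). TA2 cells were above Ser276Ala cells by 0.60 (SE 0.050, adjusted p = 3.5e-05).

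Col5a3 was low in all lines and differed between them. Its fragments per M in wt cells lay between 3.17 and 16.5 (median 4.11), in TA2 cells between 0.79 and 7.11 (median 1.76), and in Ser276Ala cells between 0 and 3.31 (median 0.21). In 3 of the 6 Ser276Ala libraries no transcript of it was assembled. On the FPKM scale Ser276Ala was below wt by 2.85 (SE 0.289, adjusted p = 1.49e-04), a fitted value that depends on the 0.5 added before the log. Col11a1, which helps set fibril diameter, was higher than in wt cells by 1.555 in TA2 cells (adjusted p = 0.00777) and by 1.31 in Ser276Ala cells (adjusted p = 0.0168). By recovered fragments only the former passed (2.31, adjusted p = 1.46e-04), with 7.26 to 12.6 fragments per M in TA2 cells against 0 to 3.96 in wt cells. Its Ser276Ala libraries held 0.88 to 4.07, overlapping wt (0.62, adjusted p = 0.129). Col3a1, Col5a1 and Col5a2, chains of types III and V, passed neither comparison by FPKM, where 1 to 6 assembled transcripts made up their level. By fragments Col3a1 was lower in Ser276Ala cells (68.2 to 113 per M against 150.5 to 185 in wt, a log2 difference of -0.84, adjusted p = 7.14e-08), with no overlap. In TA2 cells Col3a1 was also lower by fragments (122 to 171 per M), with a range that overlapped wt. Col5a1 was higher in TA2 cells by 0.53 and lower in Ser276Ala cells (-0.67) by the same measure, with adjusted p = 0.00494 and 0.00107. Col5a2 passed by fragments in both lines. It was higher in TA2 cells (215 to 313.5 per M against 162 to 212 in wt, with no overlap) and lower in Ser276Ala cells (149 to 189).

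Of the other collagens (6 members), 3 were higher and 1 lower in TA2 cells, and 2 were lower in Ser276Ala cells. By fragments 3 were higher and 2 lower in TA2 cells, and 1 higher and 4 lower in Ser276Ala cells. Col8a1, a short-chain network collagen, lay between 13.9 and 15.4 FPKM in wt cells (median 14.8), between 20.6 and 22.3 in TA2 cells (median 21.4) and between 10.2 and 13.2 in Ser276Ala cells (median 11.3). The 3 ranges did not overlap. It was above wt by 0.53 in TA2 cells (SE 0.045, adjusted p = 3.75e-05) and below it in Ser276Ala cells (-0.345, SE 0.045, adjusted p = 6.69e-04). Col6a1, a chain of the microfibrillar type VI collagen, was lower in both lines. It lay between 97.1 and 112 FPKM in wt cells (median 104), 80.9 and 92.8 in TA2 cells (median 82.1) and 76.4 and 83.8 in Ser276Ala cells (median 80.2). Both lines stood below every wt library (-0.295, SE 0.047, adjusted p = 0.00251 in TA2, and -0.37, adjusted p = 5.85e-04 in Ser276Ala). The chains Col6a2 and Col6a3 of the same collagen passed neither comparison by FPKM. Col6a3 had 253 to 301.5 fragments per M in wt, 180 to 227 in TA2 and 315 to 374 in Ser276Ala cells, with no overlap and Ser276Ala highest. Col6a2 had 263 to 311 in wt, 252.5 to 301 in TA2 and 222 to 250 in Ser276Ala cells. Col12a1, a fibril-associated collagen, had 134 to 168 fragments per M in TA2 cells against 46.7 to 87.8 in wt cells. It was higher by 1.23 on the FPKM scale (SE 0.293, adjusted p = 0.0218) and by 1.249 on the fragment scale (adjusted p = 2.99e-09). Col16a1, another fibril-associated collagen, was higher in TA2 cells by 1.49 on the FPKM scale (adjusted p = 0.0254) and by 0.26 on the fragment scale (adjusted p = 0.00127). Its highest libraries, 252.5 and 631 FPKM in TA2 cells at 2 h, held pieces of 228 and 105 bases.

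The basement membrane members (12) differed in both directions. Against wt, 1 was higher and 2 were lower in TA2 cells, and 1 was higher and 4 were lower in Ser276Ala cells. On fragments 2 were higher and 7 lower in each line. Lamb1, the laminin β1 chain, was the higher one in both lines. It lay between 72.7 and 90.6 FPKM in wt cells (median 84.0), between 97.2 and 134 in TA2 cells (median 109) and between 90.1 and 112 in Ser276Ala cells (median 103.5). The differences were 0.42 and 0.32 (SE 0.063 for both, adjusted p = 0.0019 and 0.00854), and 1 Ser276Ala library overlapped wt. Lamc1, the γ1 chain that most laminins contain, was lower in both lines, with differences of -0.26 (SE 0.060, adjusted p = 0.0196) in TA2 cells and -0.27 (adjusted p = 0.0136) in Ser276Ala cells. Its range of 17.6 to 26.3 FPKM in wt cells overlapped both other lines. The former call was lost without wt replicate 2 at 1 h (adjusted p = 0.0508), and lay between -0.31 and -0.20 over the fits that left out 1 library.

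Nid1, which links laminin to type IV collagen, was lower in Ser276Ala cells. Its range was 178.5 to 213 FPKM in wt cells (median 191) and 103 to 149 in Ser276Ala cells (median 121), with no overlap (-0.65, SE 0.061, adjusted p = 9.86e-05). In TA2 cells it lay between 157 and 198 FPKM and did not pass by FPKM (-0.12, adjusted p = 0.267), while by fragments it was lower there too (-0.22, adjusted p = 0.00193). TA2 was above Ser276Ala by 0.53 (adjusted p = 2.94e-04). Col4a1 and Col4a2, the paired chains of type IV collagen, share a promoter region on chromosome 8, where their gene models start 3 bases apart on opposite strands. By FPKM Col4a1 was lower in Ser276Ala cells (-0.20, SE 0.055, adjusted p = 0.0374) and did not pass in TA2 cells (-0.14, adjusted p = 0.141). Col4a2 was lower by FPKM in TA2 and Ser276Ala cells, with log2 differences of -0.95 and -0.93 (SE 0.178, adjusted p = 0.00635 and 0.00684). On the fragment scale the differences of Col4a2 were -0.31 and -0.27 (adjusted p = 0.00155 and 0.00324). Those of Col4a1 were -0.16 and -0.23 (adjusted p = 0.0205 and 0.0026). Col18a1 did not pass by FPKM. By fragments it was higher in Ser276Ala cells, with 165 to 202 per M against 104 to 122 in wt cells (0.70, SE 0.066, adjusted p = 9.95e-06), and the ranges did not overlap. In TA2 cells it was lower by fragments (-0.19, adjusted p = 0.0358). Hspg2 (perlecan), Lamb2, Lama5, Lama4, Col4a5 and Nid2 passed neither comparison by FPKM. By fragments Col4a5 was lower in both lines (-0.23 and -0.30, adjusted p = 1.52e-04 and 2.1e-05). In TA2 cells Lama4 was lower (-0.61, adjusted p = 0.0346) and Lama5 higher (0.55, adjusted p = 0.0075), and in Ser276Ala cells Hspg2 (-0.19, adjusted p = 0.00192) and Lamb2 (-0.17, adjusted p = 0.0241) were lower. Nid2 passed on neither measure.

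The fibulins, proteins that bind elastic fibres, basement membranes and fibronectin, were among the members with the clearest differences. Fbln2 lay between 308 and 342 FPKM in wt cells (median 317), between 669 and 708.5 in TA2 cells (median 693) and between 421 and 512 in Ser276Ala cells (median 445). None of the 3 ranges touched another. It was above wt by 1.10 in TA2 cells (SE 0.055, adjusted p = 8.89e-07) and by 0.51 in Ser276Ala cells (SE 0.055, adjusted p = 2.15e-04), and TA2 was above Ser276Ala by 0.59 (adjusted p = 8.06e-05). Fbln1 lay between 27.2 and 31.8 FPKM in wt cells (median 28.9), between 40.8 and 47.1 in TA2 cells (median 43.3) and between 37.6 and 46.4 in Ser276Ala cells (median 43.0). It was higher in both lines, by 0.57 and 0.53 (SE 0.053 for both, adjusted p = 7.65e-05 and 1.45e-04), and the TA2 minus Ser276Ala difference was 0.03 (SE 0.053, adjusted p = 0.761). Fbln5, needed to assemble elastic fibres, was higher in TA2 cells and passed in Ser276Ala cells on neither measure. It held 116 to 183 FPKM there (median 164), against 67.8 to 76.9 in wt cells (median 72.8) and 75.5 to 77.4 in Ser276Ala cells (median 76.6). The difference from wt was 1.09 (SE 0.083, adjusted p = 1.82e-05) in TA2 and 0.07 (adjusted p = 0.657) in Ser276Ala cells, and between the 2 mutant lines it was 1.02 (adjusted p = 3.17e-05). Fbn1, fibrillin 1, passed neither comparison by FPKM. By fragments it was higher in TA2 cells (78.7 to 92.4 per M against 54.6 to 59.8 in wt cells) and lower in Ser276Ala cells (35.3 to 41.6), with no overlap (0.55, adjusted p = 1.62e-06, and -0.58, adjusted p = 1.14e-06).

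Of the glycoproteins and small proteoglycans (7 members), 4 were higher in TA2 cells, and 1 was higher and 2 were lower in Ser276Ala cells. Fragments gave 5 higher and 1 lower in TA2 cells, and 1 higher and 3 lower in Ser276Ala cells. Fn1, fibronectin, lay between 246.5 and 319 FPKM in wt cells (median 289), between 591 and 767 in TA2 cells (median 608) and between 267 and 324 in Ser276Ala cells (median 293). All 6 TA2 libraries stood above the 12 others, whose ranges overlapped. The difference from wt was 1.14 (SE 0.060, adjusted p = 1.18e-06) in TA2 cells and 0.05 (SE 0.060, adjusted p = 0.707) in Ser276Ala cells. Between the mutant lines it was 1.10 (adjusted p = 1.53e-06). The highest library, TA2 replicate 2 at 0 h, stood apart for several members, and without it the difference from wt was 1.08 (adjusted p = 6.28e-07).

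Bgn, biglycan, a proteoglycan related to decorin, had yet another order. It lay between 200 and 212 FPKM in wt cells (median 204), between 320 and 357 in TA2 cells (median 334) and between 399 and 451 in Ser276Ala cells (median 427). The ranges did not overlap, and Ser276Ala was highest. The differences from wt were 0.72 and 1.05 (SE 0.036 for both, adjusted p = 9.72e-07 and 8.26e-08), and TA2 was below Ser276Ala (-0.33, SE 0.036, adjusted p = 2.18e-04). Dcn, decorin, was lower in Ser276Ala cells, at 363 to 443 FPKM (median 385) against 588 to 668 in wt cells (median 625). In TA2 cells it lay between 532 and 778 FPKM (median 572). Only Ser276Ala passed against wt (-0.67, SE 0.077, adjusted p = 3.26e-04), and TA2 did not (-0.09, adjusted p = 0.525). The highest TA2 value, 778 FPKM, was that of replicate 2 at 0 h. All other TA2 libraries held 532 to 587.3 FPKM, below every wt library.

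Postn, periostin, a protein that binds collagen and fibronectin, differed widely between the mutant lines. It lay between 16.0 and 21.2 FPKM in wt cells (median 18.1), between 30.2 and 72.4 in TA2 cells (median 34.9) and between 5.85 and 7.34 in Ser276Ala cells (median 6.82). The 3 ranges did not overlap. The difference from wt was 1.15 (SE 0.168, adjusted p = 0.0015) in TA2 cells and -1.38 (SE 0.168, adjusted p = 4.57e-04) in Ser276Ala cells. TA2 was above Ser276Ala by 2.53 (SE 0.168, adjusted p = 6.39e-06) and by 2.45 on the fragment scale (adjusted p = 4.24e-08). On the fragment scale TA2 replicate 2 at 0 h was again highest, at 189 per M against 106 to 124 in the other 5 libraries of that line. Leaving out any 1 library moved the difference between the mutant lines to between 2.37 and 2.695 by FPKM, and no such fit lost the call. Sparc was higher in TA2 cells, with 389 to 512 FPKM against 286 to 384 in wt cells (0.45, SE 0.075, adjusted p = 0.00343), and 254 to 368 in Ser276Ala cells (-0.04, adjusted p = 0.776). Lum and Tnc (tenascin-C) did not pass by FPKM in either comparison. By fragments both passed in TA2 cells, Tnc higher (0.94, adjusted p = 0.00105) and Lum lower (-1.03, adjusted p = 0.0342).

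Of the crosslinking, folding and processing members (9), 3 were higher in TA2 cells (11.7% of all genes passed) and 1 was lower in Ser276Ala cells (12.6%). By FPKM all 4 calls fell on the lysyl oxidase family, the copper enzymes that crosslink collagen and elastin. By fragments 5 were higher and 1 lower in TA2 cells (40.4% of all genes), and none higher and 4 lower in Ser276Ala cells (43.7%). The Ser276Ala counts lay near the shares of all genes, so they are not a result about this group. Lox, its founding member, lay between 31.0 and 55.7 FPKM in wt cells (median 45.2), between 58.3 and 92.8 in TA2 cells (median 80.9) and between 21.8 and 36.1 in Ser276Ala cells (median 29.4). TA2 stood above the other lines, and the ranges of wt and Ser276Ala overlapped over all times but not at any single time. The differences from wt were 0.83 and -0.57 (SE 0.054 for both, adjusted p = 5.68e-06 and 1.11e-04), and TA2 was above Ser276Ala by 1.40 (SE 0.054, adjusted p = 1.17e-07). Loxl2, which also acts on type IV collagen, held 13.1 to 20.3 FPKM in TA2 cells (median 14.3), 6.64 to 11.4 in wt cells (median 7.5) and 6.59 to 8.65 in Ser276Ala cells (median 7.49). It was higher in TA2 cells (0.88, SE 0.053, adjusted p = 3.47e-06) and in Ser276Ala cells it did not pass by FPKM (-0.10, adjusted p = 0.261) and was lower by fragments (-0.13, adjusted p = 0.0201). Loxl3 was higher in TA2 cells by 0.46 (SE 0.111, adjusted p = 0.0237), with 152 to 210 FPKM against 105 to 175 in wt cells. The endoplasmic reticulum members did not pass by FPKM in either comparison with wt. Serpinh1, the collagen chaperone HSP47, differed by 0.12 in TA2 cells and 0.02 in Ser276Ala cells (adjusted p = 0.439 and 0.939). P4hb, the β subunit of prolyl 4-hydroxylase, differed by 0.03 and -0.04 (adjusted p = 0.838 and 0.804). Plod2, a lysyl hydroxylase, was lower in TA2 than in Ser276Ala cells, with 13.6 to 15.3 FPKM against 16.7 to 18.4 (-0.24, SE 0.051, adjusted p = 0.0123). By fragments Plod2 was also the 1 member of this group lower in TA2 than in wt cells, with 52.1 to 60.9 per M against 60.1 to 66.4.

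The next question was how TNFα moved the matrix genes. Averaged over the 3 lines, 2 of the 45 members rose at 1 h and none fell (4.44%, where 4.35% of the genes tested passed, 1.92% higher and 2.43% lower). At 2 h, 6 rose and none fell (13.3%, where 8.79% passed, 3.75% higher and 5.03% lower). Recovered fragments gave 1 higher and 4 lower at 1 h (11.1% against 15.9% of all genes), and 11 higher and 8 lower at 2 h (42.2% against 37.2%). Past the test on both measures, 1 member rose at 1 h (1.68% of all genes) and 6 rose at 2 h (3.47%), while none fell at either time (2.13% and 4.72%). At 1 h, and by fragments at 2 h, the members' shares lay near those of all genes, so those counts are not a result about the matrix genes. The 6 that rose at 2 h were 13.3% of the members, by FPKM and on both measures, against 3.75% and 3.47% of all genes. This is a small count and is given as a description. The fragment counts changed when TA2 replicate 1 at 0 h was left out. The 1 h and 2 h comparisons share the 0 h libraries.

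Lox was the member that rose at 1 h on both measures. In wt cells it stood at 34.0 and 31.0 FPKM at 0 h, 45.0 and 45.5 at 1 h, and 55.7 and 53.6 at 2 h. In TA2 cells it stood at 66.8 and 58.3 FPKM, then 82.5 and 79.2, then 92.8 and 90.3. In Ser276Ala cells it stood at 24.1 and 21.8 FPKM, then 27.2 and 31.6, then 36.0 and 36.1. In every line both libraries at 1 h were above both at 0 h, and both at 2 h were above both at 1 h. Over the 3 lines the log2 difference from 0 h was 0.40 (SE 0.054, adjusted p = 0.00155) at 1 h and 0.645 (SE 0.054, adjusted p = 4.85e-05) at 2 h. Within lines the rise at 2 h was 0.74 in wt cells (adjusted p = 0.00225), 0.55 in TA2 cells (adjusted p = 0.00972) and 0.64 in Ser276Ala cells (adjusted p = 0.00926). At 1 h it passed in wt cells (0.47, SE 0.094, adjusted p = 0.0334), not by FPKM in TA2 cells (0.37, adjusted p = 0.0849) or Ser276Ala cells (0.35, adjusted p = 0.145), and by fragments in all 3 (0.46, 0.45 and 0.38, adjusted p = 0.00295, 0.00268 and 0.0103). The call at 1 h in wt cells by FPKM was lost in 12 of the 18 fits that left out 1 library, with differences of 0.41 to 0.54. The rise at 2 h in TA2 cells by FPKM no longer passed without replicate 2 at 0 h (0.45) or without replicate 1 at 2 h. The fragment call at 1 h in Ser276Ala cells was lost without replicate 2 at 0 h or replicate 2 at 1 h, with differences of 0.26 to 0.49 over the left-out fits.

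Loxl2 did not change at 1 h by the test and rose at 2 h. In wt cells it was at 7.38 and 7.63 FPKM at 0 h, 6.97 and 6.64 at 1 h and 10.4 and 11.4 at 2 h. In TA2 cells it went from 14.4 and 13.1 to 14.3 and 13.6 and then to 18.9 and 20.3. In Ser276Ala cells it was at 7.39 and 7.58, then 7.17 and 6.59, then 8.64 and 8.65. In each line both libraries at 2 h stood above the 4 others. The difference at 2 h was 0.40 over the lines (SE 0.053, adjusted p = 0.00104), 0.51 in wt cells (adjusted p = 0.0179) and 0.50 in TA2 cells (adjusted p = 0.0138). Each of the last 2 calls was lost when some of its own libraries were left out, 3 libraries for wt, with differences of 0.45 to 0.57, and 2 for TA2, with 0.43 to 0.57. On fragments they were not lost, with differences of 0.48 to 0.63 and 0.48 to 0.62.

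**Figure D4:**
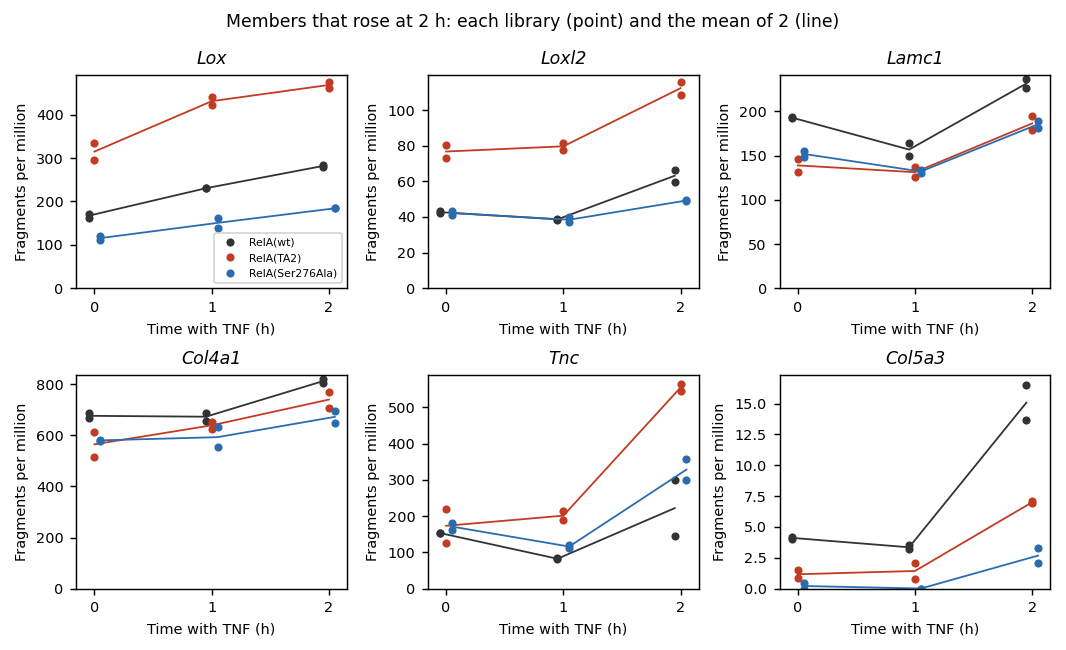
Recovered fragments per M (y, from 0) of the 6 members that rose at 2 h over the 3 lines, against hours with TNFα (x), with points for libraries and lines through the mean of 2, coloured by line. Lox was higher at 1 h and again at 2 h in each line, Loxl2, Lamc1 and Col5a3 were higher at 2 h than at 0 h in each line, and the 2 wt libraries of Tnc at 2 h lay apart, at 298.5 and 145.

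Lamc1 and Col4a1, both of the basement membrane, rose at 2 h. Lamc1 stood at 22.5 and 21.9 FPKM at 0 h and 26.2 and 26.3 at 2 h in wt cells, at 17.1 and 15.4 and then 27.9 and 22.2 in TA2 cells, and at 18.2 and 17.3 and then 21.9 and 21.1 in Ser276Ala cells. In each line both libraries at 2 h were above both at 0 h. At 1 h Lamc1 stood at 17.6 and 18.7 FPKM in wt cells and 15.8 and 15.3 in Ser276Ala cells, below both 0 h libraries. In TA2 cells Lamc1 stood at 15.6 and 14.7 FPKM at 1 h, overlapping 0 h. It rose by 0.37 over the lines (SE 0.060, adjusted p = 0.00351) and by 0.60 in TA2 cells (SE 0.104, adjusted p = 0.00974). Without TA2 replicate 2 at 0 h the latter was 0.53 and no longer passed, while on the fragment scale it was 0.42 (adjusted p = 9.19e-04) with all libraries. Col4a1 stood at 90.2 and 92.3 FPKM at 0 h and 107.5 and 110.1 at 2 h in wt cells, at 85.5 and 72.0 and then 97.4 and 105 in TA2 cells, and at 79.7 and 81.1 and then 94.7 and 87.8 in Ser276Ala cells. It rose by 0.27 over the lines (SE 0.055, adjusted p = 0.0139), with both libraries at 2 h above both at 0 h in each line.

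Tnc, tenascin-C, a glycoprotein made in wounds and inflamed tissue, had 154 and 152 fragments per M at 0 h and 298.5 and 145 at 2 h in wt cells. In TA2 cells it had 221 and 126, then 566 and 544, and in Ser276Ala cells 181 and 161, then 358 and 299. Both libraries at 2 h were above both at 0 h in the mutant lines, and in wt cells 1 was above and 1 below. At 1 h Tnc had 83.5 and 80.9 fragments per M in wt cells and 113 and 119 in Ser276Ala cells, below both 0 h libraries. TA2 cells had 214 and 189 at 1 h, between their 0 h values. The difference over the lines was 1.15 by FPKM (SE 0.268, adjusted p = 0.0239) and 1.04 by fragments (SE 0.168, adjusted p = 6.48e-04). The FPKM call was lost in 8 of the 18 fits that left out 1 library, with differences of 0.96 to 1.33, and the fragment call in none. Col5a3 had 4.03 and 4.19 fragments per M at 0 h and 13.7 and 16.5 at 2 h in wt cells. It had 0.84 and 1.48, then 6.9 and 7.11 in TA2 cells, and 0 and 0.41, then 2.04 and 3.31 in Ser276Ala cells. By fragments every 2 h library was above both 0 h libraries of its line, at a low level throughout, and by FPKM the wt libraries at 0 h and 2 h overlapped. By FPKM the rise was 1.07 (SE 0.289, adjusted p = 0.0457), a call lost in 16 of the 18 fits that left out 1 library, with differences of 0.79 to 1.34. By fragments it was 2.05 (SE 0.204, adjusted p = 2.15e-05), and no such call was lost.

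The largest FPKM change with TNFα among the members was that of Bmp1, at 4.41 in wt cells at 1 h (SE 0.560, adjusted p = 0.00154) and 1.49 over the lines (adjusted p = 0.0249). On the fragment scale these were -0.02 (adjusted p = 0.971) and -0.05 (adjusted p = 0.501), and the short pieces named above carried the FPKM. By FPKM at 2 h Bmp1 did not pass in any line, with differences of -0.25, -0.003 and -1.46 in wt, TA2 and Ser276Ala cells. Col4a5, an α5 chain of type IV collagen, was lower by FPKM at 2 h in TA2 cells (-1.19, SE 0.256, adjusted p = 0.0293), from 14.3 and 13.2 to 5.76 and 5.7 FPKM. Its fragments were 41.7 and 44.3 per M at 0 h and 39.5 and 40.6 at 2 h (-0.10, adjusted p = 0.188). Col11a1 was lower by FPKM at 2 h in wt cells (-2.72, SE 0.521, adjusted p = 0.0254), where 1 library at 2 h was listed at 0, and not by fragments (-1.66, adjusted p = 0.0691). The FPKM value lay between -3.44 and -1.99 over the fits that left out 1 library, and did not pass without wt replicate 1 at 2 h or wt replicate 2 at 0 h.

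Within lines, by FPKM, 2 members rose at 1 h in wt cells (1.63% of all genes passed in either direction) and none passed in TA2 cells (2%) or Ser276Ala cells (1.5%). The last 2 counts of 0 from limma stand beside 6 and 1 members with an unadjusted p under 0.05, and beside 1 member each by fragments, Lox. At 2 h, 2 rose and 1 fell in wt cells (1.87%), 3 rose and 1 fell in TA2 cells (4.06%), and 1 rose in Ser276Ala cells (0.973%). By fragments, 1 rose and 2 fell at 1 h in wt cells (6.82% of all genes), and 1 rose in each of TA2 cells (10.1%) and Ser276Ala cells (6.08%). At 2 h by fragments, 7 rose in wt cells (12.3%), 7 rose and 3 fell in TA2 cells (26.7%), and 6 rose and 1 fell in Ser276Ala cells (10%). Col3a1, type III collagen, was among those that fell, from 171 and 162 to 122 and 124 fragments per M in TA2 cells and from 104 and 113 to 72.4 and 68.2 in Ser276Ala cells. These falls were -0.44 (adjusted p = 0.00101) and -0.62 (adjusted p = 3.34e-04) on the log2 scale, and in wt cells both libraries at 2 h were also below both at 0 h. The same gene did not pass by FPKM. The counts in TA2 cells turned on its 0 h libraries. Without replicate 1 at 0 h they were higher at 2 h on both measures and at 1 h by fragments. Without replicate 2 at 0 h they were lower at 2 h by FPKM. The share of all genes in those fits is not given here, so these changes are not a result about the members. The fragments of the 2 TA2 libraries at 0 h also differed most, with a chi-square per gene of 39.14 against 14.09 to 25.77 in the other conditions. In replicate 1 at 0 h 95.49% of the fragments lay in genes, as did 95.51% in Ser276Ala replicate 1 at 1 h, where the median was 98.01%.

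Whether the lines differed in their response to TNFα was tested as the difference between a mutant line and wt in the change from 0 h. By limma on FPKM, no member passed for TA2 at 1 h (0.294% of all genes passed) or Ser276Ala at 2 h (0.172%), with 4 and 2 members at an unadjusted p under 0.05. Col11a1 passed for TA2 at 2 h (4.35, adjusted p = 0.0481, 0.253% of all genes) and Bmp1 for Ser276Ala at 1 h (-4.85, adjusted p = 0.0477, 0.188%). Each of these calls was lost in 13 of the 18 fits that left out 1 library, and by fragments the values were 1.29 (adjusted p = 0.462) and -0.03 (adjusted p = 1). By fragments no member passed in any of the 4 tests, where 1.74%, 0.311%, 0.245% and 0.278% of all genes passed for TA2 at 1 h and 2 h and Ser276Ala at 1 h and 2 h. These fragment counts turned on 1 library: without TA2 replicate 1 at 0 h, members passed for TA2 at both times. That fit leaves 1 library in the condition, and its share of all genes is not given here. For Lox the difference in the 2 h response was -0.19 (adjusted p = 0.779) in TA2 cells and -0.10 (adjusted p = 0.96) in Ser276Ala cells, with an SE of 0.133, so its rise was not shown to differ between the lines.

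Of 19 genes for collagen folding and processing beyond the members, 18 were tested. By FPKM, where 11.7%, 12.6% and 8.79% of all genes passed, 1 was higher and 1 lower in TA2 than in wt cells, 1 was lower in Ser276Ala cells, and 2 rose at 2 h. By fragments, where 40.4%, 43.7% and 37.2% passed, 7 were higher and 4 lower in TA2 cells, 4 higher and 6 lower in Ser276Ala cells, and 3 rose and 2 fell at 2 h. The same shares of all genes stand behind the 3 lists that follow. Adamts2, which removes the amino propeptide of procollagen, was lower in both lines (-1.06, adjusted p = 0.00635, and -0.87, adjusted p = 0.0158). Loxl4, another lysyl oxidase, was higher in TA2 cells (0.25, adjusted p = 0.0105) and rose at 2 h (0.22, adjusted p = 0.0229), as did P4ha3, a prolyl 4-hydroxylase subunit (0.56, adjusted p = 0.0234). Of 24 matrix receptors, 23 were tested, with 4 higher and 6 lower in TA2 cells, 4 higher and 3 lower in Ser276Ala cells, and 5 rising at 2 h by FPKM. Fragments gave 9 higher and 11 lower, 6 higher and 9 lower, and 9 rising and 1 falling. Itga7, a laminin-binding integrin chain, had a mean of 7.07 FPKM in wt cells, 16.1 in TA2 cells and 19.8 in Ser276Ala cells (1.13, adjusted p = 8.89e-07, and 1.425, adjusted p = 1.7e-07). Itga11, a collagen-binding chain, was listed at 0 in both mutant lines and had a mean of 4.29 FPKM in wt cells. It passed the threshold of level through wt cells alone and is counted among the lower calls of both lines. Itgb3, the β3 chain of the vitronectin receptor, was lower in TA2 than in Ser276Ala cells (-0.59, adjusted p = 1.37e-04).

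Of 40 other matrix proteins, 26 were tested. By FPKM 4 were higher and 1 lower in TA2 than in wt cells, and 6 were lower and none higher in Ser276Ala cells. By fragments 12 were higher and 3 lower in TA2 cells, and 1 was higher and 12 were lower in Ser276Ala cells. Between the mutant lines 11 were higher in TA2 cells and none lower by FPKM (12.8% of all genes passed), and 20 and 2 by fragments (43.1%). At 2 h 3 rose and 1 fell by FPKM, and 6 rose and 3 fell by fragments. Fstl1, a secreted glycoprotein, had a mean of 80.9 FPKM in wt, 137 in TA2 and 77.5 in Ser276Ala cells (0.77 for TA2 minus wt, adjusted p = 4.22e-07). Thbs1, thrombospondin 1, was higher in TA2 cells (1.34, adjusted p = 4.13e-05) and rose with TNFα by 1.675 at 1 h (adjusted p = 6.29e-06) and 1.52 at 2 h (adjusted p = 2.15e-05). Of 15 genes of the TGF-β pathway, a known inducer of matrix genes, all were tested. By FPKM 1 was higher in TA2 than in wt cells, 1 was lower in Ser276Ala cells, and 3 rose and 1 fell at 2 h. By fragments 5 were higher and 5 lower in TA2 cells, 2 higher and 4 lower in Ser276Ala cells, and 7 rose and 3 fell at 2 h. Skil, an inhibitor of SMAD proteins, rose at 2 h from a mean of 8.37 to 18.2 FPKM (1.08, adjusted p = 1.92e-05), as did Tgfb1 (0.35, adjusted p = 0.00503), and Tgfb3 was higher in TA2 than in Ser276Ala cells (0.71, adjusted p = 0.00562).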

How the data were processed

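RNA of the 3 lines was made into 18 poly-dT selected libraries, 2 for each of 9 conditions. Per the labels and the study's methods, the authors used CASAVA 1.8.2 for base calls, TopHat2 2.0.5 with the aligner Bowtie2 2.0.0.7 for mapping (mm10), and Cufflinks 2.0.2 to assemble each library separately. The deposited files hold a score per assembled transcript in their score column, and the FPKM of each transcript in its attribute text. Here the FPKM deposited by the authors were summed per gene over transcripts that lay in its exons for 50% or more of their length, or that covered 50% or more of its exons. For transcripts alone in their locus, the fragments behind an FPKM were recovered from its confidence limit. This gave whole numbers within 0.02, for values below 500, for 88.94% to 90.16% of such transcripts. From these transcripts the number of fragments per FPKM was fitted on transcript length in each library. The fragments of every transcript were then estimated as its FPKM times the fitted value for its length. The whole-number check does not cover these estimates. Genes at 1 FPKM or more in at least 2 libraries (12236) entered a limma fit (version 3.58.1, R 4.3.3) of log2(FPKM + 0.5), with 9 condition means, an intensity trend and 9 residual degrees of freedom. Tests were two-sided, with Benjamini-Hochberg adjustment over all 12236 genes and a threshold of 0.05. Fold changes on this scale understate those of low genes. Recovered fragments per M were fitted in the same way, with 0.5 added. The median SD between replicates was 0.299 by FPKM and 0.107 by fragments on the log2 scale. Depth was 25.33 to 31.34 M mapped fragments, and 22.05 to 27.73 M recovered in genes. Python 3.11.15 served for tables (numpy 2.4.6, pandas 2.3.3) and figures (matplotlib 3.10.9), and the fit was tested on simulated data.

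The members and all gene lists were chosen with earlier results of these data known. Members named were up to 8 per direction with the smallest adjusted p in each averaged comparison, up to 4 in each single-line comparison and response difference, the 5 highest and 5 lowest by level, Lox and Bmp1. Up to 3 genes were named per other list, and 1 gene so chosen is not reported here. Further members named to complete a group (Col3a1, Col5a1, Col5a2, Col6a2, Col6a3, Fbn1, Col12a1, Col16a1, Col18a1, Col4a5, Lama4, Lama5, Lamb2, Hspg2, Nid2, Loxl3, Serpinh1, P4hb) were chosen after their values were seen. Alternatives changed the pseudocount, filter, isoform sum, scaling, zeros, samples in the fit, replicate block and each left-out library.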

Additional observations from a re-analysis of the deposited data

Results flagged for a closer look

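A pair of members differed between a mutant line and wt in their response to TNFα by the limma test of the difference itself on FPKM. The change of Col11a1, a type XI collagen chain, from 0 h to 2 h was larger in TA2 than in wt cells by 4.352 on the log2 scale (adjusted p = 0.0481). Its libraries held 3.14 and 3.54 FPKM at 0 h and 10.4 and 12.5 at 2 h in TA2 cells, and 3.68 and 6.55 FPKM at 0 h and 0 and 0.87 at 2 h in wt cells. By recovered fragments the difference was 1.29 (adjusted p = 0.462). The TA2 libraries held 8.995 and 11.64 fragments per M at 0 h and 7.264 and 8.43 at 2 h. Those of wt held 2.98 and 1.867 at 0 h, and 0 and 1.157 at 2 h. On this measure Col11a1 thus lay lower at 2 h than at 0 h in both lines. The change of Bmp1, the procollagen protease, from 0 h to 1 h differed between Ser276Ala and wt cells by -4.854 (adjusted p = 0.0477), and by -0.03 by fragments (adjusted p = 1). The Bmp1 value rests on the short assembled pieces in the wt libraries at 1 h described above. Both calls were lost in 13 of the 18 fits that left out 1 library.

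Nfkbia, the IκBα gene used to check the treatment, differed between lines in its response at 1 h by the limma test of the difference itself on recovered fragments. Its rise was smaller than in wt cells by a log2 difference of -1.511 in TA2 cells (adjusted p = 0.00329) and -1.473 in Ser276Ala cells (adjusted p = 0.00383). Over the 18 fits that left out 1 library these ran from -1.651 to -1.372 and from -1.612 to -1.333, and none lost the call. By FPKM neither passed.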

How the results depend on the processing

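Of 1798 values for 62 named gene comparisons under the alternatives, 1652 kept their direction and their side of the threshold, 129 no longer passed, 8 newly passed and 9 changed sign. The 9 were all Bmp1: by fragments -0.054 over the lines and -0.02 in wt cells at 1 h, 0.081 in wt cells at 2 h and -0.089 in TA2 cells at 1 h. The others were -0.288 with the highest isoform only in TA2 cells at 1 h, 0.063 with median-of-ratios scaling in TA2 cells at 2 h, 0.078 and 0.504 there without either replicate 2, and 0.607 in Ser276Ala cells at 1 h without replicate 1 at 0 h. Over the left-out fits these last comparisons ran from -0.509 to 0.504 and from -1.493 to 0.607.

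Recovered fragments called 37 members for TA2 against wt, 31 for Ser276Ala against wt and 31 between the mutant lines, and 5 at 1 h and 19 at 2 h over the lines. Within lines they called 7 in wt, 10 in TA2 and 7 in Ser276Ala cells at 2 h, 1 in each mutant line at 1 h, and 0 in the response differences. Fragments with the replicate number as a block, or with median-of-ratios scaling, were added after seeing the data. The replicate block gave 38, 33, 31, 5 and 20 in the 5 averaged comparisons, 6, 11 and 8 at 2 h within the lines, 1 in each mutant line at 1 h, and 0 in the response differences. With that scaling the counts were 37, 31 and 33 between lines, 19 at 2 h, 9, 11 and 8 at 2 h within the lines, 1 in each mutant line at 1 h and 0 in the response differences. By FPKM the replicate block gave 0 in place of 1 for the response differences of TA2 at 2 h and Ser276Ala at 1 h, and moved no other count by over 1.5 times. The libraries share only a number: correlations of deviations between conditions ran from -0.079 to 0.075 by FPKM, where 0 of 36 passed 0.1, and from -0.098 to 0.103 by fragments, where 1 of 36 did.

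Other FPKM settings moved small counts. The highest isoform only gave 1 at 1 h over the lines, 0 in wt cells at 2 h and 0 in both response differences with a call. Fitting the compared groups only gave 1 at 1 h over the lines, 1 at 1 h and 0 at 2 h in wt cells, 0 at 2 h in each mutant line, and 1, 0 and 0 in the response differences of TA2 at 1 h and 2 h and Ser276Ala at 1 h. Setting single zeros to missing gave 3 at 1 h and 8 at 2 h in TA2 cells, 1 and 2 in Ser276Ala cells, and 2, 2, 2 and 1 in the 4 response differences. Quantile normalization gave 1 in wt cells at 1 h and 2 in Ser276Ala cells at 2 h, and median-of-ratios scaling gave 1 in TA2 cells at 1 h. A filter of 5 FPKM gave 0 in both response differences with a call, and so did a pseudocount of 0.1 for TA2 at 2 h and of 1 for Ser276Ala at 1 h. The cause was not tested.

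Leaving out 1 library gave 18 to 21 members for TA2 against wt, 15 to 17 for Ser276Ala against wt and 18 to 20 between the mutant lines by FPKM, and 33 to 40, 28 to 36 and 29 to 34 by fragments. At 1 h and 2 h over the lines it gave 1 to 2 and 4 to 8 by FPKM, and 2 to 9 and 16 to 27 by fragments. Within wt cells it gave 1 to 2 and 1 to 4 by FPKM, and 1 to 4 and 4 to 11 by fragments. Within TA2 cells it gave 0 to 1 and 0 to 9 by FPKM, and 1 to 9 and 8 to 23 by fragments. Within Ser276Ala cells it gave 0 and 1 to 3 by FPKM, and 0 to 1 and 4 to 10 by fragments. The response differences gave 0 to 1 by FPKM, and 0 to 6 and 0 to 8 for TA2, 0 and 0 to 1 for Ser276Ala by fragments. Most of the high fragment counts came without TA2 replicate 1 at 0 h, which leaves replicate 2 of that condition alone and assumes that it varies like the other groups. The shares of all genes in these fits are not given here, so a change in a count is not a result about the members. Precision differed between members: by fragments the SE of a line difference was 1.181 for Nid2, listed at 0 in 9 libraries, and 0.039 for Hspg2.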
